A study of Mus musculus with 6 samples.

Results

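Meiotic maturation of control mouse oocytes was followed from the fully grown stage to metaphase II by Ribo-lite, a form of ribosome profiling for small cell numbers. It sequences the mRNA fragments that ribosomes shield from nuclease, so the level of a gene reflects how many ribosomes sit on its coding sequence. Of the 6 libraries of the series, 4 belong to this comparison: WT_FGO_1 and WT_FGO_2 (wild type, fully grown oocytes with a germinal vesicle, labelled as control) and WT_MII_1 and WT_MII_2 (wild type, control oocytes at metaphase II). Per the study's methods the mice had a C57BL/6 background, the donors were 4-week-old females primed with 5 IU of pregnant mare serum gonadotropin for 44 h, each library was made from 500 pooled oocytes, maturation took place in culture, and control oocytes of both stages received the solvent DMSO. The other 2 libraries were metaphase II oocytes treated during maturation with the G-quadruplex ligand BYBX. They entered the filter on mean level and the estimate of the spread between replicates, but not the contrast. These 2 libraries were unusually alike. In each of them 10813 genes stood at 0, against 12826 and 11734 in WT_FGO and 12418 and 11719 in WT_MII. The study also lists them as its most closely correlated Ribo-lite pair. Such a pair lowers the estimated spread, so standard errors and p-values may be too small. All 22416 gene names of the deposited table were included. Of these, 15129 averaged 1 FPKM or more over all 6 libraries and entered the test.

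A fully grown oocyte no longer transcribes its genome and lives on mRNA made during growth. Many of these mRNAs carry a short poly(A) tail and are stored without ribosomes. When meiosis resumes, a set of them gains a tail and is translated, which supplies the proteins that drive both meiotic divisions and hold the egg at metaphase II, whereas other mRNAs, above all those that served growth, lose their tail and their ribosomes. Cytoplasmic polyadenylation elements, short U-rich stretches near the end of the 3′ untranslated region, and the hexamer that also directs cleavage in the nucleus are the best known signals for this switch.

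FPKM counts footprints scaled to coding length and to library depth. No spike-in scaling is stated, so all levels are relative to the library total, and a gain or loss of footprints in the whole oocyte would go unseen. Because oocytes were pooled, fewer oocytes with ribosomes on an mRNA and fewer ribosomes per oocyte cannot be told apart, and since mRNA levels were not analysed here, neither can fewer ribosomes per mRNA and less mRNA. Reads recovered from the FPKM steps gave depths of 94309 and 107251 reads in WT_FGO and 164973 and 230908 reads in WT_MII, so the metaphase II libraries were deeper. Over the 2389 tested genes with at least 40 reads in the 4 libraries, Spearman's rho was 0.865 within WT_FGO, 0.861 within WT_MII and 0.249 to 0.300 across stages. This is a description across genes, which are not independent replicates. All 11 oocyte markers had footprints in WT_FGO and 10 of 11 in each WT_MII library, with summed levels of 29103 to 45595 FPKM and 17820 to 22073 FPKM. The 20 granulosa and cumulus cell markers summed to 885 and 1948 FPKM in WT_FGO and 2278 and 456 FPKM in WT_MII, with 12, 6, 7 and 7 of them at 0, so these markers were uneven within each stage. Inha stood at 29 and 747 FPKM in the WT_FGO libraries, and Hsd17b1 at 1956 and 256 FPKM in the WT_MII libraries.

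Footprints were redistributed across the transcriptome between the stages. In limma, with Benjamini-Hochberg adjustment at 0.05, 555 genes were higher in WT_MII (3.67% of those tested) and 468 were lower (3.09%). With 40 or more recovered reads these shares were 17.4% (416 genes) and 9.67% (231 genes). That limit lets in more genes with metaphase II reads because of the depth difference, so it describes how well covered genes behaved and supports no direction. Of the higher genes, 162 had no read in either WT_FGO library, and of the lower genes, 159 had no read in either WT_MII library. The share of higher genes among the calls was 54.3%, and 71.3% when each library was centred on its median. The median change was -0.44 on the log2 scale over all tested genes and 0.13 over those with at least 40 reads. Nothing in the labels says that replicates came from separate animals or cultures, so p-values measure the spread between these samples. A fit of the 4 control libraries alone called 0 genes, with 2858 at an unadjusted p under 0.05 and 0.116 as the smallest adjusted p. The calls of the main fit thus depended on including the treated pair, whose libraries were unusually alike. Higher calls numbered 902 without WT_FGO_2, and lower calls numbered 1065 without WT_FGO_1, 850 without WT_FGO_2, 243 without WT_MII_1 and 263 without WT_MII_2. The part of the depth difference between stages in the calls was not tested.

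**Figure D1:**
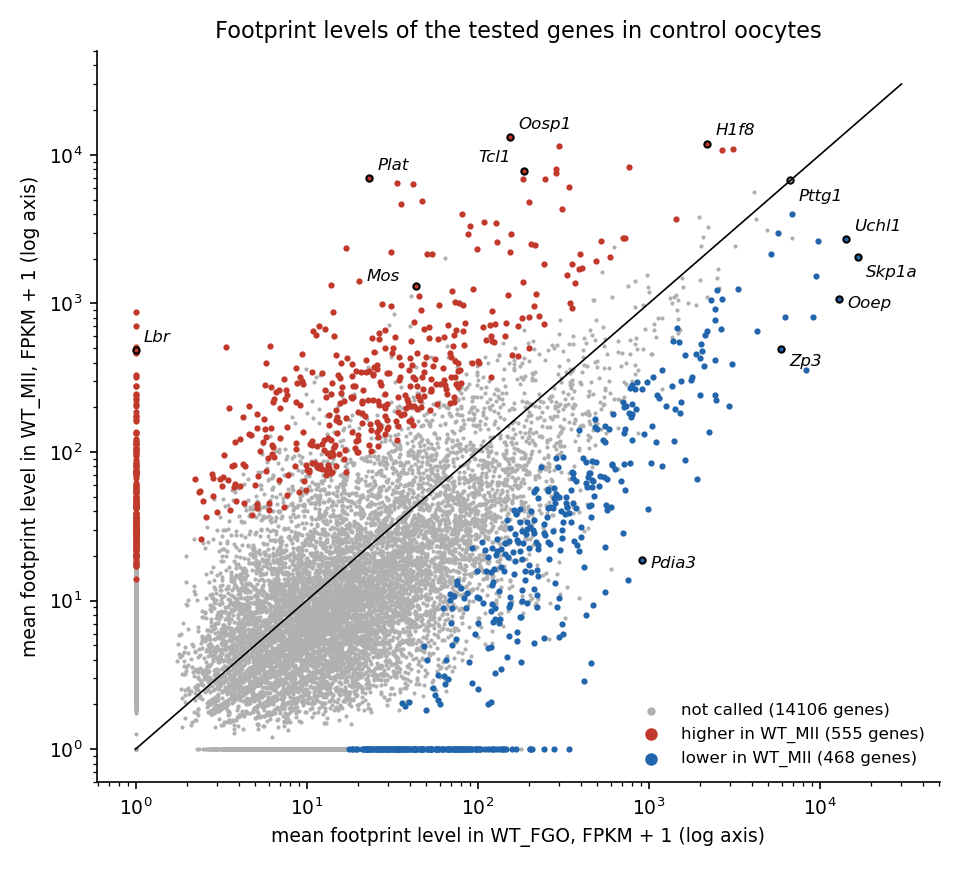
Mean FPKM + 1 of each tested gene in WT_FGO (x axis) and WT_MII (y axis), both on log axes, n = 2 libraries per stage. Points on the diagonal have equal levels. Red points were higher (555) and blue points lower (468) in WT_MII by limma, grey points were not called, and genes without reads at a stage lie along the axes. Named genes are outlined. Skp1a, Ooep and Zp3 lie below the diagonal, Oosp1, Plat and Tcl1 far above it, and Pttg1 on it.

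The mRNAs with the most footprints were largely replaced. The 8 highest genes of each stage were chosen on their group means, so the direction of their change is partly set by that choice. Skp1a, a core subunit of SCF ubiquitin ligases, came first in WT_FGO with 20329 and 13083 FPKM in WT_FGO and 1951 and 2186 FPKM in WT_MII (log2 change -2.98 ± 0.23 (SE), adjusted p = 0.00250 in limma). Uchl1, a ubiquitin hydrolase, had 15009.7 and 13296 FPKM in WT_FGO and 2736 and 2680.0 FPKM in WT_MII (log2 change -2.38 ± 0.14 (SE), adjusted p = 0.00117). Ooep, of the subcortical maternal complex that early embryos need, had 14332 and 11484 FPKM in WT_FGO and 1133 and 995 FPKM in WT_MII (log2 change -3.59 ± 0.18 (SE), adjusted p = 0.000839). In each of these genes both WT_MII libraries lay far below both WT_FGO libraries. Padi6, a component of the cytoplasmic lattices, had 10477 and 8544 FPKM in WT_FGO and 1687 and 1369 FPKM in WT_MII (log2 change -2.64 ± 0.18 (SE), adjusted p = 0.00194), and Nlrp14, of the oocyte NLRP family, had 11379 and 8228 FPKM in WT_FGO and 2462 and 2791 FPKM in WT_MII (log2 change -1.88 ± 0.19 (SE), adjusted p = 0.00565). The neighbours Ftdc1 and Ftdc2, which encode ferritin-like proteins, fell as well. Ftdc1 went from 10322 and 6181 FPKM to 367 and 344 FPKM, and Ftdc2 from 10511 and 7673 FPKM to 716 and 902 FPKM, with adjusted p = 0.00143 and 0.00168 in limma. Borcs7, a subunit of the BORC lysosome-positioning complex, went from 8752 and 4943 FPKM to 2502 and 2983 FPKM without passing the test (adjusted p = 0.0590). Thus 7 of these 8 genes fell. For Skp1a, 30.1% of the 28-base words of its coding sequence are found in further transcripts too, and its level is to that extent uncertain.

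All of the 8 highest genes of WT_MII rose. Oosp1, a secreted oocyte protein, had 122 and 185 FPKM in WT_FGO and 11263 and 15029 FPKM in WT_MII (log2 change 6.43 ± 0.25 (SE), adjusted p = 0.000604 in limma). H1f8, the oocyte linker histone, had 2356 and 2013 FPKM in WT_FGO and 10223 and 13537 FPKM in WT_MII (log2 change 2.43 ± 0.18 (SE), adjusted p = 0.00226). Both were thus well apart from their earlier levels, although H1f8 was already high before. Bcl2l10, an anti-apoptotic BCL2 relative of the oocyte, had 204 and 391 FPKM in WT_FGO and 9499.7 and 13287 FPKM in WT_MII (log2 change 5.31 ± 0.33 (SE), adjusted p = 0.00164). Tcl1, a cofactor of the kinase AKT, had 191 and 182 FPKM in WT_FGO and 6671 and 9006 FPKM in WT_MII (log2 change 5.37 ± 0.20 (SE), adjusted p = 0.000604), and E330034G19Rik, a gene named only by its clone, had 211 and 363 FPKM in WT_FGO and 6102 and 9899 FPKM in WT_MII (log2 change 4.80 ± 0.33 (SE), adjusted p = 0.00194). These 3 genes came from far lower levels. Bpgm, the red cell bisphosphoglycerate mutase, had 3275 and 2976 FPKM in WT_FGO and 9424 and 12613 FPKM in WT_MII (log2 change 1.80 ± 0.17 (SE), adjusted p = 0.00458), Spin1, a histone reader bound to the meiotic spindle, had 2995 and 2373 FPKM in WT_FGO and 10134 and 11279 FPKM in WT_MII (log2 change 2.00 ± 0.16 (SE), adjusted p = 0.00287), and Zbed3, a partner of the subcortical maternal complex, had 775 and 749.7 FPKM in WT_FGO and 8995 and 7693 FPKM in WT_MII (log2 change 3.45 ± 0.16 (SE), adjusted p = 0.000758). For Spin1, 38.3% of the 28-base coding words occur elsewhere.

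**Figure D2:**
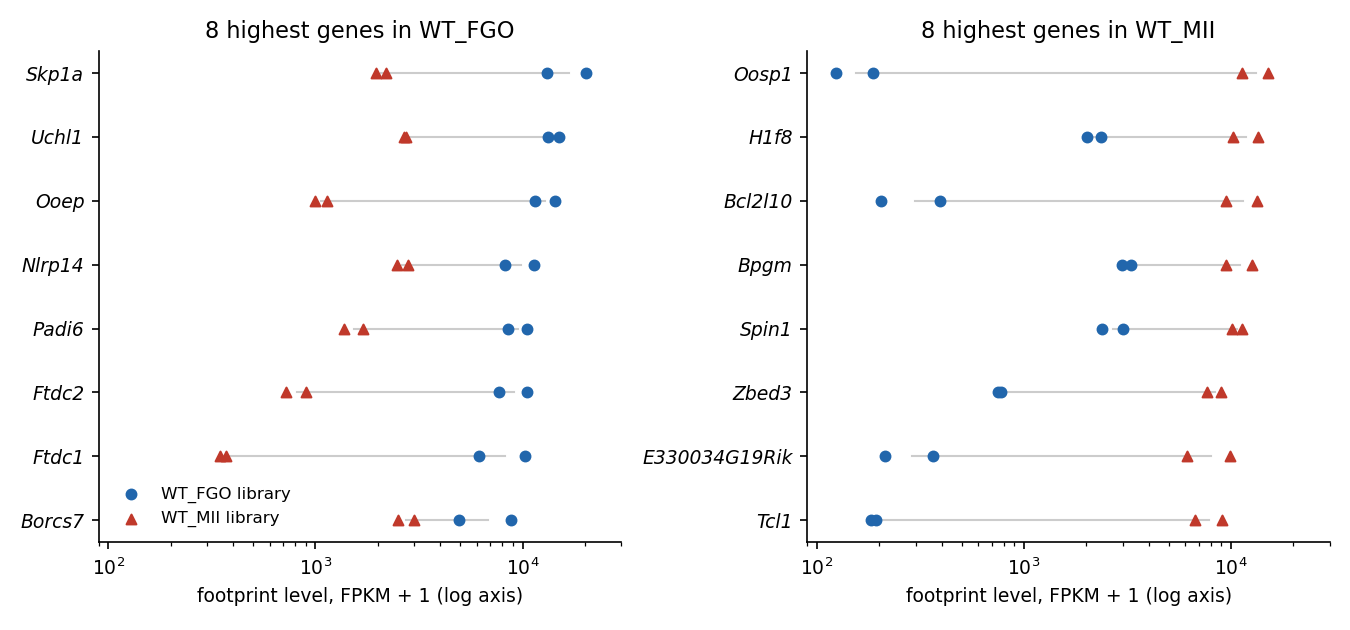
FPKM + 1 (log axis) of the 8 genes with the highest mean in WT_FGO (left) and in WT_MII (right). Blue circles are the WT_FGO libraries, red triangles the WT_MII libraries, and grey lines join the means (n = 2). Blue and red symbols do not overlap for any of the 16 genes, with all red symbols to the left of the blue ones on the left and to the right of them on the right.

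The 100 highest genes held 40.2% and 33.3% of all FPKM in the WT_FGO libraries and 40.9% and 44.6% in the WT_MII libraries. By group means, 37 genes belonged to the 100 highest at both stages. To keep the noise of the ranking library out of the change, genes were ranked in 1 library and the changes measured without it. The genes were still selected as high at 1 stage, so the direction of their change remains partly set by that choice. The 100 highest of WT_FGO_1 still held 32.7% of FPKM in WT_FGO_2 but 19.2% and 18.2% in the WT_MII libraries, with a median log2 change of -1.46, and 61 of them were over 2-fold lower against 5 over 2-fold higher. Ranked by WT_FGO_2, the median was -1.31, with 59 over 2-fold lower and 4 over 2-fold higher. In the other direction, the 100 highest of WT_MII_1 held 43.4% of FPKM in WT_MII_2 but 24.1% and 21% in the WT_FGO libraries, with a median change of 2.2 and 59 genes over 2-fold higher against 21 over 2-fold lower. For WT_MII_2 the median was 2.06 and the numbers were 64 and 14.

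Some mRNAs kept their level. A gene was counted as held where the 95% interval of its log2 change lay within 1 on both sides of 0, which applied to 27 tested genes, 25 of them with at least 40 recovered reads. Pttg1, which encodes securin, the inhibitor of separase that is degraded at each anaphase, had 7791 and 5658 FPKM in WT_FGO and 5409 and 8067 FPKM in WT_MII (log2 change -0.01, 95% interval -0.59 to 0.58). The libraries of both stages overlapped, and the gene was among the 13 highest at either stage. Further held genes, picked after their values were seen, were Dnmt1, the maintenance DNA methyltransferase (1065 and 942 FPKM in WT_FGO and 1136 and 1261 FPKM in WT_MII, interval -0.21 to 0.73), Sub1, a single-stranded DNA-binding coactivator (4731 and 3524 FPKM in WT_FGO and 5203 and 6024 FPKM in WT_MII, interval 0.00 to 0.91), and Prdx1, a peroxiredoxin (1723 and 1390.0 FPKM in WT_FGO and 1137 and 1806 FPKM in WT_MII, interval -0.78 to 0.55). Ywhae, a 14-3-3 protein (676 and 983 FPKM in WT_FGO and 849.9 and 1049 FPKM in WT_MII), and Prkar1a, a regulatory subunit of protein kinase A (91.9 and 113 FPKM in WT_FGO and 94.5 and 113 FPKM in WT_MII), were held too. The absence of a call in other genes does not show that they were held.

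The 12 largest rises that met the naming rule were Plat, Smim11, Smim14, Ddit4, Lbr, Tex19.1, Obox5, Mbd3l2, Cks1b, Smagp, Ccnb1 and Smco4. For 9 of them no WT_FGO library held a read, and their folds are given as lower bounds against a floor of 3 reads per library, which covers counting error only. Tex19.1, which acts in silencing of retrotransposons, had 0 FPKM in both WT_FGO libraries and 339.6 and 588 FPKM in WT_MII and was at least 16.3-fold higher. Mbd3l2, a relative of the methyl-CpG-binding proteins, reached 186 and 753 FPKM, at least 10.7-fold higher. Cks1b, a small partner of cyclin-dependent kinases, reached 257 and 398 FPKM, at least 3.10-fold higher. Smagp, a small transmembrane adhesion protein, reached 187 and 446 FPKM, at least 3.09-fold higher. All 4 were thus seen at metaphase II only, on 202, 140, 38 and 39 reads. Obox5, an oocyte homeobox gene, rested on 3 reads in WT_FGO against 840 in WT_MII, a ratio of 143-fold (95% exact counting interval 48.6 to 693), with 55.6% of its coding words found elsewhere. Smco4, a small single-pass membrane protein, had 1 read against 162, a ratio of 82.5-fold (95% exact counting interval 14.6 to 3278).

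The largest falls included those of Sec22b, Dnajc9, Ywhab, Tpgs2, Gja1, Ndufa10, Cetn2, Gnl3, Copz1, Fam162a and Htra1, from starting levels well below those of the highest genes. Ywhab, a 14-3-3 protein, went from 158 and 177 FPKM to no read (at least 7.93-fold lower), and Gnl3, the stem cell protein nucleostemin of the nucleolus, from 91.6 and 109 FPKM to no read (at least 10.4-fold lower). Dnajc9, a cochaperone that binds histones H3 and H4, had 72 reads against 1, a ratio of 141-fold (95% exact counting interval 24.6 to 5662). Cetn2, a centrin, had 637 and 307 FPKM in WT_FGO and 0 and 16.8 FPKM in WT_MII, and Copz1, a subunit of the COPI vesicle coat, had 619 and 242 FPKM in WT_FGO and 0 and 14 FPKM in WT_MII. In these genes the stages did not overlap. Gja1, the gap junction protein connexin 43, had 92.5 and 740.4 FPKM in WT_FGO and 0 and 3.78 FPKM in WT_MII, and Htra1, a secreted serine protease, had 36.8 and 207 FPKM in WT_FGO and 0 and 0 FPKM in WT_MII. Both were several times higher in WT_FGO_2 than in WT_FGO_1, the summed level of the granulosa and cumulus markers was also higher there, and the part of somatic cells in these falls was not tested.

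**Figure D3:**
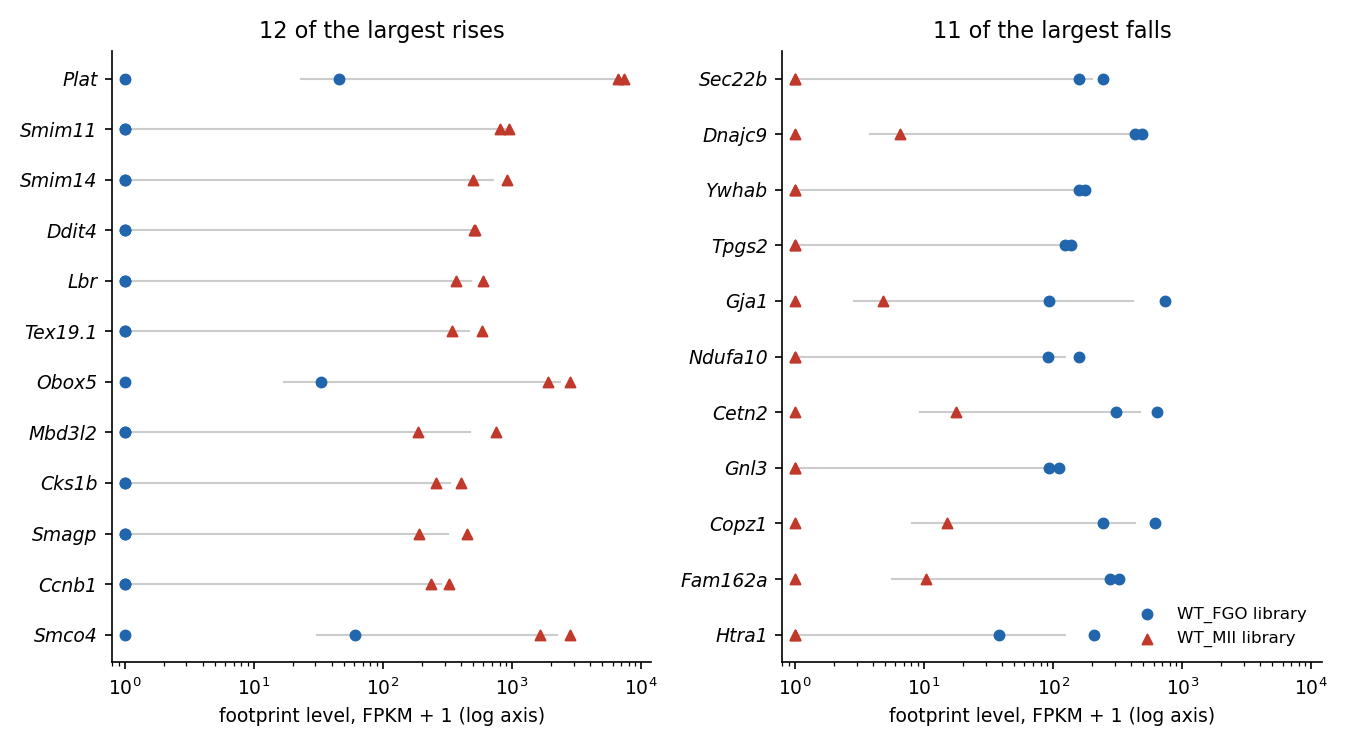
FPKM + 1 (log axis) of the 12 genes with the largest rises (left) and of 11 with the largest falls (right) among genes named by the rule. Blue circles are WT_FGO libraries, red triangles WT_MII libraries, and grey lines join the means. A value of 1 stands for 0 FPKM, and symbols of both libraries coincide there for 9 of the 12 rises in WT_FGO and for 6 of the 11 falls in WT_MII.

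The ends of the 3′ untranslated regions differed between the 2 directions. Cytoplasmic polyadenylation elements were searched as the letters TTTTAT, also with a doubled A as in TTTTAAT and with a further A as in TTTTAAAT (DNA letters, transcript strand only). The window was the last 100 bases of the annotated 3′ untranslated region of 1 transcript per gene in GENCODE M21 (GRCm38). That transcript was the one with the longest coding sequence, and regions under 100 bases were left out. An element was found in 246 of 524 higher genes with such a region (46.9%), in 46 of 407 lower genes (11.3%) and in 2841 of 13734 tested genes (20.7%). Higher genes had 2 or more matches in 9.73% of cases, lower genes in 0.98% and all tested genes in 3.60%. The hexamer (AATAAA, or its common variant with letters ATTAAA), by contrast, lay in the last 50 bases of 83.8%, 77.1% and 77.2%. The element share was larger where the change was larger, in classes chosen after the data were seen. For genes with 40 or more reads it was 11.6% where the log2 change was under -4 (43 genes), 11.1% from -4 to -2, 14.7% from -2 to -1, 24.6% from -1 to 1, 34.9% from 1 to 2, 44.6% from 2 to 4 and 51.4% at 4 or more (245 genes).

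The sites of 7 risers and 1 faller are shown because they include several of the most heavily translated mRNAs of metaphase II and because the element and the hexamer lie within 30 bases of each other. Capitals mark the element and the hexamer (in Pdia3 its variant), all are written 5′ to 3′ on the transcript strand, and coordinates are those of GRCm38. They are for Bcl2l10 chr9:75351590-75351619, plus strand, for Bpgm chr6:34505575-34505604, plus strand, for Zbed3 chr13:95337812-95337841, plus strand, for Oosp3 chr19:11711829-11711858, plus strand, for Bub1b chr2:118641556-118641585, plus strand, for Prc1 chr7:80316208-80316237, plus strand, for Cnot7 chr8:40493036-40493065, minus strand and for the faller Pdia3 chr2:121438654-121438683, plus strand.
Bcl2l10: tTTTTAATaacttcaaattcttAATAAAtg
Bpgm: ttgtatccaTTTTATAATAAAacgggcctt
Zbed3: tttttttttAATAAAcTTTTATttatctgc
Oosp3: cacaacctataAATAAAacaTTTTATtgta
Bub1b: cactgtgtaTTTTATAATAAAatagttttt
Prc1: ttgtTTTTAAATgtatgaaAATAAAatgtg
Cnot7: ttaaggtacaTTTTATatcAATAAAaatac
Pdia3: tggATTAAAgtattgccctccTTTTATagc

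The element lay before the hexamer in Bcl2l10, Bpgm, Bub1b, Prc1 and Cnot7 and after it in Oosp3 and Pdia3. In Zbed3 the capitals mark an element after the hexamer, and another match, not in capitals, starts before the hexamer and overlaps it. Of the 8 highest WT_MII genes 7 had an element in the window and Oosp1 had none. Among the 8 highest WT_FGO genes 0 had one. A match is a description of letters and not a measured binding site, and its absence says only that these letters are not in the window: Mos and Ccnb1, for instance, had none there. Among the gene lists, an element was found in 18 of 41 replication genes (43.9%) and 6 of 16 messages known to be stored silent (37.5%). It was found in 14 of 39 spindle genes (35.9%), against 6 of 55 respiratory chain genes (10.9%) and 3 of 35 proteasome genes (8.57%). The share over all tested genes was 20.7%. Other lists did not part by direction. The mRNA decay list, with rises only among its calls, had 25%. The endoplasmic reticulum and subcortical lists, with mostly falls, had 24.3% and 25%.

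Base composition moved with the calls, so the shares were also compared at like composition, an analysis chosen after the data were seen. The median A and T content of the last 100 bases was 70% in higher, 63% in lower and 64% in all tested genes. Between 65% and 69% of A and T, an element was found in 48.3% of 116 higher, 11% of 82 lower and 23.5% of 2416 genes not called. Between 60% and 64% the shares were 35.0%, 7.61% and 14.2%, and from 75% on they were 67.9%, 38.5% and 46.1%. In each of the 6 composition classes the order was the same, with higher genes first and lower genes last. The orders of the same 6 letters differed. TTTTAT alone was found in 32.6% of higher and 8.11% of lower genes, TTTATT in 22.3% and 12.3%, TTATTT in 21.8% and 11.8%, TATTTT in 28.6% and 13.5%, and ATTTTT in 29.2% and 12%. By contrast, TTTTTA, which can overlap the element by 5 letters, was found in 40.5% and 8.60%. The untranslated regions themselves differed in length, with medians of 1062.5 bases in higher and 611 in lower genes against 967 in all tested genes. Coding sequences did too, with a median of 1423.5 bases in higher and 969 in lower genes against 1431.

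**Figure D4:**
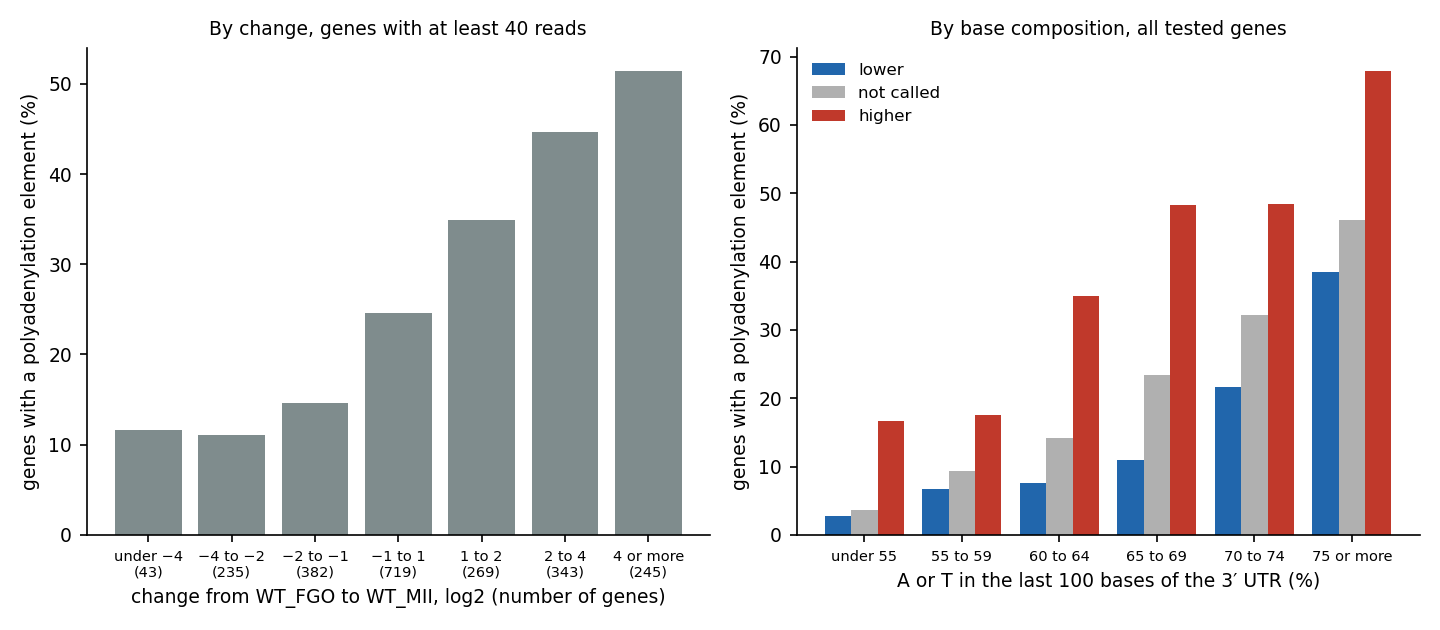
Share of genes with a cytoplasmic polyadenylation element in the last 100 bases of the 3′ untranslated region (y axes, percent). Left, by change from WT_FGO to WT_MII (x axis, log2, number of genes in parentheses) for genes with at least 40 reads, with shares from 11.1% to 51.4%. Right, by A and T content of the same 100 bases (x axis, percent) for genes called lower (blue), not called (grey) and higher (red), where the red bar is the tallest and the blue bar the lowest in each class.

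Most messages known to be stored silent until meiosis resumes rose. Like all lists, this one was chosen with earlier results of these data known, so its counts are a description and no independent support. For every list below, the shares over all tested genes were 3.67% higher and 3.09% lower. Lists also differ in coverage, and among genes with at least 40 reads the shares were 17.4% and 9.67%. Of 16 listed, all tested, 12 rose and 0 fell, and the median log2 change was 4.78 against -0.44 over all tested genes, of which 3.67% rose. At an unadjusted p under 0.05 there were 14 rises and 0 falls. The list held 0.0890% and 0.140% in WT_FGO and 3.36% and 3.46% in WT_MII of all FPKM. Mos, the kinase that starts the MAPK cascade of the egg, had 30.9 and 54.4 FPKM in WT_FGO and 1160.5 and 1473 FPKM in WT_MII (log2 change 4.96 ± 0.34 (SE), adjusted p = 0.00194 in limma). Slbp, which binds the stem-loop of histone mRNAs, had 297 and 387 FPKM in WT_FGO and 5036 and 7059 FPKM in WT_MII (log2 change 4.13 ± 0.23 (SE), adjusted p = 0.00117), and Dcp1a, a decapping cofactor, had 17.4 and 35.8 FPKM in WT_FGO and 994 and 978 FPKM in WT_MII (log2 change 5.24 ± 0.40 (SE), adjusted p = 0.00243). In each of them both WT_MII libraries lay far above both WT_FGO libraries. Tpx2, a spindle assembly factor, had 23.7 and 54.2 FPKM in WT_FGO and 336 and 521 FPKM in WT_MII, and Orc6, a subunit of the origin recognition complex, had 46.1 and 122 FPKM in WT_FGO and 731 and 744 FPKM in WT_MII (adjusted p = 0.0139 and 0.0159 in limma). Dazl, an RNA-binding translational activator, had 2 reads against 237, a ratio of 60.3-fold (95% exact counting interval 16.5 to 501). The 4 members without a call, named because they are so few, were Cnot6l, Fbxo43, Dcp2 and Il7. Fbxo43, the inhibitor of the anaphase-promoting complex that holds metaphase II, had 0 and 24.2 FPKM in WT_FGO and 221 and 295 FPKM in WT_MII (adjusted p = 0.0707), whereas Dcp2 and Il7 had no more than 2 reads at either stage. Without WT_MII_1, 7 members were called higher, and 8 without WT_MII_2. As 92.4% of the coding words of Ccnb1 occur elsewhere, its level is uncertain.

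Secreted factors of the oocyte and its transcription factors were called in both directions. Oosp3 rose with Oosp1, from 18.1 and 47.8 FPKM to 5761 and 7248 FPKM (log2 change 7.72 ± 0.44 (SE), adjusted p = 0.00117 in limma), while their relative Oosp2 fell from 989 and 832 FPKM to 253 and 275 FPKM (adjusted p = 0.0143). Of the growth factors through which the oocyte instructs its follicle, Bmp15 fell from 3841 and 2077 FPKM to 237 and 169 FPKM (log2 change -3.81 ± 0.37 (SE), adjusted p = 0.00498), and Gdf9 had 5899 and 3883 FPKM in WT_FGO and 2822 and 3417 FPKM in WT_MII without passing the test (adjusted p = 0.182). The stages were thus far apart for Bmp15, whereas the lower WT_FGO value of Gdf9 lay close to its higher WT_MII value. Of the 8 secreted factors 0 were called lower without WT_MII_1 and 1 without WT_MII_2. Among 14 tested transcription factors, 3 rose and 2 fell. Lhx8 and Nobox, which direct follicle growth, fell from 291 and 198 FPKM to 5.36 and 3.83 FPKM and from 154 and 224 FPKM to 7.67 and 21.9 FPKM (adjusted p = 0.00429 and 0.0297). The risers were the homeobox genes Obox1, Obox2 and Obox5. Obox2 had 117 and 247 FPKM in WT_FGO and 5312 and 8442 FPKM in WT_MII, but 71.6%, 68.8% and 55.6% of the coding words of these genes occur in others, so reads may have been split among them. Without WT_MII_1, 1 of the 14 factors was called higher, and without WT_MII_2, 0 were.

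Factors that remove mRNA were called in 1 direction in the main fit. A fit of genes with at least 40 reads called 10 of them higher and 1 lower, and precision weights 11 and 2. Of 29 listed deadenylation, decapping and decay factors, all tested, 9 rose and 0 fell, against 3.67% and 3.09% of all tested genes. The list was better covered than most genes. At least 40 reads were recovered for 15 members, and of all genes so covered 17.4% rose and 9.67% fell. Their median change was 0.91 against -0.44, 20 members were not called, and at an unadjusted p under 0.05 these numbers were 12 and 3. The list shares Btg4, Cnot7, Cnot6l, Dcp1a and Dcp2 with the one above. Pan2, the catalytic subunit of another deadenylase, had 23.6 and 28.5 FPKM in WT_FGO and 323 and 268 FPKM in WT_MII (log2 change 3.46 ± 0.35 (SE), adjusted p = 0.00557 in limma). Cnot8, a CCR4-NOT deadenylase related to Cnot7, had 36.3 and 10.6 FPKM in WT_FGO and 311 and 346 FPKM in WT_MII (log2 change 3.98 ± 0.58 (SE), adjusted p = 0.0173), and Xrn2, a nuclear exonuclease, had 0 and 13.1 FPKM in WT_FGO and 283 and 241 FPKM in WT_MII (log2 change 6.13 ± 1.17 (SE), adjusted p = 0.0370). Edc4, the scaffold of decapping, had 77.2 and 65.7 FPKM in WT_FGO and 229 and 204 FPKM in WT_MII (log2 change 1.59 ± 0.32 (SE), adjusted p = 0.0434). All 4 genes were apart between the stages. Lsm1 and Dis3l2 were called on 5 and 20 reads, all in WT_MII. Without either WT_MII library 3 members were called higher, and without either WT_FGO library 9 were.

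Storage and poly(A)-binding proteins moved in both directions. Among 22 storage and repression proteins 2 rose and 4 fell (median -0.60). Zar1, which binds stored mRNAs at mitochondria, and Cpeb1, which reads the polyadenylation element, fell from 1146 and 1093 FPKM to 218 and 264 FPKM and from 579 and 658 FPKM to 155 and 205 FPKM (adjusted p = 0.00705 and 0.0269 in limma). Eif4enif1, the 4E-T protein that keeps mRNA from initiation, fell from 151 and 294 FPKM to 12.3 and 17.6 FPKM (adjusted p = 0.0153), as did Caprin2 on 39 against 3 reads. The risers were Dazl and Lsm14a, a P-body protein (28.7 and 75.8 FPKM in WT_FGO and 279 and 337 FPKM in WT_MII). Without either WT_MII library 0 storage proteins were called higher and 2 lower. Ybx2, the germ cell Y-box protein, had 1108 and 1923 FPKM in WT_FGO and 709 and 623 FPKM in WT_MII (adjusted p = 0.0888). Of 17 tested poly(A)-binding proteins and polyadenylation enzymes, 2 rose and 2 fell. Pabpc1l, the poly(A)-binding protein of oocytes, fell from 338 and 282 FPKM to 0 and 11.9 FPKM (log2 change -6.43 ± 1.18 (SE), adjusted p = 0.0334), while Pabpn1l rose from 24.5 and 32.4 FPKM to 309 and 371 FPKM (adjusted p = 0.00401). The partners of poly(A)-binding protein also parted. Paip1, which promotes translation, rose from 327 and 487 FPKM to 1403 and 2054 FPKM (log2 change 2.09 ± 0.30 (SE), adjusted p = 0.0156), and Paip2, which inhibits it, fell from 1938 and 2030.2 FPKM to 212 and 268 FPKM (log2 change -3.05 ± 0.26 (SE), adjusted p = 0.00330).

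Regulators of M phase exchanged members rather than moving as a group. Of 20 tested cyclin, CDK1 and phosphatase regulators, 5 rose and 2 fell, and the list median of -0.29 changed sign on centring. Cdk1, the kinase of M phase, fell from 452 and 471 FPKM to 47.6 and 38.9 FPKM (log2 change -3.39 ± 0.35 (SE), adjusted p = 0.00585 in limma), while its cyclin Ccnb1 and its partner Cks1b rose from no read. Wee2, the oocyte kinase that inhibits CDK1 and is needed to leave metaphase II, rose from 19.11 and 61.6 FPKM to 262 and 505 FPKM (log2 change 3.36 ± 0.62 (SE), adjusted p = 0.0332). Mastl, the Greatwall kinase, rose from 36.8 and 18.0 FPKM to 194 and 215 FPKM (log2 change 2.94 ± 0.46 (SE), adjusted p = 0.0213), and Ppp2ca, the catalytic subunit of the phosphatase PP2A that Greatwall restrains, fell on 16 against 3 reads (adjusted p = 0.0333). Cdc25a had no read in WT_FGO and 39.0 and 66.9 FPKM in WT_MII, at least 2.75-fold higher. Without either WT_MII library 3 M-phase regulators were called higher. In the Mos-MAPK pathway, with 11 tested members, Mos and Map2k1 rose and Mapk3 fell. Map2k1, the kinase that activates MAPK, had 36.0 and 31.6 FPKM in WT_FGO and 211 and 397 FPKM in WT_MII (log2 change 3.06 ± 0.42 (SE), adjusted p = 0.0142), and Mapk3 (ERK1) had 269 and 221 FPKM in WT_FGO and 24.8 and 28.4 FPKM in WT_MII (log2 change -3.15 ± 0.42 (SE), adjusted p = 0.0128).

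The anaphase-promoting complex and the spindle checkpoint had 6 risers and 1 faller among 28 tested genes, and a median of -0.85. At an unadjusted p under 0.05 these numbers were 7 and 9, and 7 genes were called in each direction with precision weights. Bub1b, a checkpoint kinase homologue, rose from 23.5 and 82.7 FPKM to 2001 and 2269.7 FPKM (log2 change 5.56 ± 0.55 (SE), adjusted p = 0.00523 in limma), with no overlap between the stages. Cdc20, the activator of the complex, had 3 reads against 203, a ratio of 34.5-fold (95% exact counting interval 11.6 to 168). Mad2l1, which restrains Cdc20, had 224 and 212 FPKM in WT_FGO and 917 and 1394 FPKM in WT_MII (log2 change 2.37 ± 0.27 (SE), adjusted p = 0.00793), Cdc27, a core subunit, had 21.3 and 18.7 FPKM in WT_FGO and 189.7 and 233 FPKM in WT_MII (log2 change 3.33 ± 0.36 (SE), adjusted p = 0.00677), and Espl1, separase, had 50.0 and 32.3 FPKM in WT_FGO and 165 and 139 FPKM in WT_MII (log2 change 1.89 ± 0.40 (SE), adjusted p = 0.0465). Anapc10 had no read in WT_FGO. For Cdc20, Mad2l1 and Anapc10, 37.6%, 32.0% and 44.1% of the coding words occur elsewhere. Ube2s, the E2 enzyme that extends ubiquitin chains for the complex, fell on 18 against 1 reads. So the activator, a checkpoint inhibitor and separase all rose while securin (Pttg1) was held.

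Among 42 tested spindle genes 9 rose (21.4%) and 6 fell (14.3%), with a median of 1.02. At least 40 reads were recovered for 32 of them, and of all genes so covered 17.4% rose and 9.67% fell. The other 27 were not called. Prc1, a bundler of antiparallel microtubules, had 50.9 and 134 FPKM in WT_FGO and 1002 and 1485 FPKM in WT_MII (log2 change 3.87 ± 0.48 (SE), adjusted p = 0.0105 in limma), and Kif23, a kinesin of centralspindlin, had 175 and 189.6 FPKM in WT_FGO and 1227 and 1553 FPKM in WT_MII (log2 change 2.91 ± 0.23 (SE), adjusted p = 0.00288). Cep55, an abscission protein, had no read in WT_FGO and 232 and 225 FPKM in WT_MII, at least 10.6-fold higher. Kif20a, Kif20b and Kif2c, further kinesins, rose by 2.14, 2.45 and 2.38 on the log2 scale. Cdca8, the borealin subunit of the chromosomal passenger complex, rose from 41.6 and 27.4 FPKM to 267 and 497 FPKM, whereas its partner Birc5 (survivin) fell from 2459.8 and 2457 FPKM to 287 and 156 FPKM (adjusted p = 0.0116 and 0.00458). Subunits of a single complex thus moved in opposite directions. Tacc3, a stabilizer of spindle microtubules, fell from 1073 and 914 FPKM to 37.7 and 42.7 FPKM (log2 change -4.59 ± 0.31 (SE), adjusted p = 0.00194), as did Aspm, Nusap1 and the tubulins Tubb5 and Tubb2a, the last sharing 70.03% of its coding words with other genes. Without WT_MII_2, 3 members were called higher, and without WT_MII_1, 6.

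Cohesin and condensin genes also moved in both directions. Smc4, a core condensin subunit, fell from 222 and 374 FPKM to 11 and 7.85 FPKM (log2 change -4.81 ± 0.50 (SE), adjusted p = 0.00578 in limma), whereas Ncapg2, of condensin II, rose from 9.32 and 2.73 FPKM to 123 and 126 FPKM (log2 change 4.33 ± 0.61 (SE), adjusted p = 0.0153). Rad21, the mitotic kleisin of cohesin, rose from 50.1 and 29.4 FPKM to 149.6 and 259 FPKM (adjusted p = 0.0433), and Sgo2a, the shugoshin that protects cohesin, had 3 reads against 158, a ratio of 26.8-fold (95% exact counting interval 9.01 to 131). These were the 4 calls among 22 tested genes, and without either WT_MII library 0 were called higher.

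DNA replication genes, which the zygote will need for its first S phase, moved both ways. Of 44 tested replication genes 6 rose and 3 fell (median -0.53). Mcm4 and Mcm2, helicase subunits, rose from 8.17 and 7.18 FPKM to 226 and 207 FPKM (log2 change 4.65 ± 0.38 (SE), adjusted p = 0.00293 in limma) and from 72.7 and 84.1 FPKM to 273 and 305 FPKM (log2 change 1.87 ± 0.30 (SE), adjusted p = 0.0232). Cdc45, which activates that helicase, went from no read to 99.96 and 112 FPKM, at least 6.03-fold higher. Orc1 and Orc6, of the origin recognition complex, rose with Dut, the dUTPase, while Rpa1, Pold2 and Tyms fell. The last 2 had 8 and 9 reads in WT_FGO and none in WT_MII. After median centring 10 replication genes were called higher and 2 lower, with precision weights 8 were higher and 10 lower, and without either WT_MII library 4 were called higher. Among 32 tested chromatin factors 6 rose and 3 fell. Npm2, the nucleoplasmin of the egg, fell from 2390.5 and 2492 FPKM to 293 and 188 FPKM (log2 change -3.37 ± 0.28 (SE), adjusted p = 0.00321), and Nasp, a histone chaperone, and Uhrf1, the partner of Dnmt1, fell with it. Asf1b, another histone chaperone, rose from 87.5 and 154 FPKM to 600.2 and 515 FPKM (log2 change 2.25 ± 0.35 (SE), adjusted p = 0.0197), and Zfp57, which guards imprints, from 209.9 and 133 FPKM to 706 and 713 FPKM (log2 change 2.08 ± 0.30 (SE), adjusted p = 0.0157). Ezh2 and Eed, of the Polycomb complex PRC2, rose by 1.91 and 1.40. Without either WT_MII library 3 chromatin factors were called higher, and with precision weights 8 were called in each direction. Replication-dependent histones, 53 tested with 3 rises and 2 falls, are too alike in sequence for single genes to be compared with confidence.

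Smaller groups held single strong changes. Of 36 tested repair genes 4 rose and 0 fell, among them Chek1, a checkpoint kinase, from 81.7 and 169.8 FPKM to 645 and 813 FPKM (log2 change 2.61 ± 0.39 (SE), adjusted p = 0.0189 in limma), and Trp53bp1, which marks double-strand breaks, from 1.78 and 4.69 FPKM to 90.4 and 74.7 FPKM (log2 change 4.39 ± 0.58 (SE), adjusted p = 0.0128). Without either WT_MII library 0 repair genes were called. Of 50 tested nuclear pore and import genes, Ipo8, Nup62 and Nup98 rose. The median change of this list was -0.27 without WT_FGO_1 and 0.07 without WT_FGO_2. Ipo8, which imports Argonaute proteins, had 73.5 and 67.7 FPKM in WT_FGO and 524 and 516 FPKM in WT_MII (log2 change 2.86 ± 0.29 (SE), adjusted p = 0.00526). Dicer1, which cuts small RNA precursors, rose from 64.9 and 53.8 FPKM to 306 and 269.6 FPKM (log2 change 2.26 ± 0.32 (SE), adjusted p = 0.0153). In the nuclear lamina list, with 18 tested, Lbr and Sun1 rose, and in the mTOR list, with 21 tested, Ddit4 and Rragc rose. These 5 lists, small RNA silencing included with 20 tested, had 0 genes called lower in the main fit. Between 0 and 6 per list were lower at an unadjusted p under 0.05. Other settings gave lower calls as well. With at least 40 reads, 7 nuclear pore genes were called higher and 2 lower, and 5 repair genes higher and 3 lower. Precision weights gave 6 and 5 for the nuclear pore and 4 and 4 for repair.

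On the side of the losses, the zona pellucida genes, which coat the growing oocyte, fell as a set of 3 out of 3. Zp3, the sperm-binding glycoprotein, had 7769 and 4164 FPKM in WT_FGO and 486 and 497 FPKM in WT_MII (log2 change -3.53 ± 0.31 (SE), adjusted p = 0.00338 in limma). Zp2 had 8407 and 4037 FPKM in WT_FGO and 774 and 856 FPKM in WT_MII (log2 change -2.84 ± 0.34 (SE), adjusted p = 0.00960), and Zp1, which cross-links them, had 2211 and 1375 FPKM in WT_FGO and 296 and 340.0 FPKM in WT_MII (log2 change -2.45 ± 0.29 (SE), adjusted p = 0.00898). They held 2.29% and 1.24% in WT_FGO and 0.215% and 0.215% in WT_MII of all FPKM. The stages did not overlap for any of them, yet 0 were called when either WT_MII library was left out.

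Of 16 genes of the subcortical maternal complex, the cytoplasmic lattices and the oocyte NLRP family, 9 fell and 2 rose (median -1.62). Beside Ooep, Padi6 and Nlrp14, Tle6 fell from 2101 and 2093 FPKM to 498 and 263 FPKM (log2 change -2.53 ± 0.33 (SE), adjusted p = 0.0118 in limma) and Nlrp5 (MATER), the founding member, from 2684 and 1575 FPKM to 629 and 603 FPKM (log2 change -1.74 ± 0.29 (SE), adjusted p = 0.0249). Khdc3 (FILIA) had 459.6 and 160.3 FPKM in WT_FGO and 31.7 and 19.4 FPKM in WT_MII, with 56.4% of its coding words found elsewhere. Nlrp9b, Nlrp9a and Nlrp2 fell by 2.53, 1.70 and 1.54 on the log2 scale. The exceptions were Zbed3 and Nlrp4f (204 and 285 FPKM in WT_FGO and 666 and 787 FPKM in WT_MII, log2 change 1.58 ± 0.27 (SE), adjusted p = 0.0272). Members of the list thus moved apart. The list held 5.65% and 4.61% in WT_FGO and 2.47% and 2.14% in WT_MII of all FPKM. Without WT_MII_1 or WT_MII_2, 4 members were called lower, and 5 after median centring.

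The ubiquitin list, with 34 tested genes, had 14 falls and 3 rises. In addition to Skp1a and Uchl1, 9 members of the Fbxw gene cluster, F-box proteins found in oocytes, fell. Fbxw24 was the highest of them, with 4922 and 3688 FPKM in WT_FGO and 637 and 675 FPKM in WT_MII (log2 change -2.70 ± 0.21 (SE), adjusted p = 0.00282 in limma), and Fbxw26 had the largest fall, from 865 and 654 FPKM to 13.0 and 12.4 FPKM (log2 change -5.78 ± 0.38 (SE), adjusted p = 0.00181). The 9 genes share between 18.1% and 44.2% of their coding words with other genes, so their falls are not independent measurements. Rnf114, a ring-finger ligase, fell from 2392 and 1995 FPKM to 565 and 738 FPKM (adjusted p = 0.0128). Against the direction of Skp1a, its SCF scaffold Cul1 rose from 353 and 386 FPKM to 1225 and 1537 FPKM (log2 change 1.89 ± 0.22 (SE), adjusted p = 0.00793), as did Ddb1, the adaptor of CUL4 ligases (190.2 and 262 FPKM in WT_FGO and 751 and 898 FPKM in WT_MII, log2 change 1.88 ± 0.27 (SE), adjusted p = 0.0167), and Usp9x, a deubiquitinase (59 and 66.4 FPKM in WT_FGO and 335 and 275 FPKM in WT_MII, log2 change 2.26 ± 0.31 (SE), adjusted p = 0.0143). The share of FPKM held by the list was 7.04% and 5.85% in WT_FGO and 1.74% and 1.79% in WT_MII. Of 43 tested proteasome subunits 9 fell and 2 rose (median -1.78). Psmb2, of the catalytic core, had 862 and 727 FPKM in WT_FGO and 231 and 187 FPKM in WT_MII, and Psmb4 fell from 375 and 247 FPKM to 30.6 and 27.3 FPKM. Psma2 rose from 302 and 412 FPKM to 855 and 993 FPKM (adjusted p = 0.0307), so not all subunits of the core moved one way. After median centring 5 proteasome subunits were called lower.

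Genes of the secretory pathway fell more often than they rose. Of 39 tested genes of entry into the endoplasmic reticulum, glycosylation and folding, 11 fell and 1 rose (median -2.23). Calr, the lectin chaperone calreticulin, had 2668 and 1143 FPKM in WT_FGO and 68 and 62.5 FPKM in WT_MII (log2 change -4.72 ± 0.45 (SE), adjusted p = 0.00463 in limma). Pdia3, its disulfide isomerase partner, had 1001 and 831 FPKM in WT_FGO and 24.0 and 11.4 FPKM in WT_MII (log2 change -5.69 ± 0.45 (SE), adjusted p = 0.00282). Hsp90b1 and Hspa5, the chaperones GRP94 and BiP, fell from 745 and 689.8 FPKM to 100.78 and 63.0 FPKM and from 1122 and 839 FPKM to 311 and 278 FPKM (adjusted p = 0.00847 and 0.0196). Dad1, Ddost, Rpn2, Ost4 and Tmem258, all of oligosaccharyltransferase, fell too, whereas Ssr3, a translocon-associated protein, rose from 17.6 and 77.6 FPKM to 494 and 850.3 FPKM (log2 change 4.08 ± 0.69 (SE), adjusted p = 0.0263). Leaving out WT_MII_1 gave 5 lower calls in this list, leaving out WT_MII_2 gave 7, and leaving out WT_FGO_2 gave 7 lower and 4 higher calls. In the cytosol, 7 of 26 tested chaperones fell and 0 rose (10 and 1 at an unadjusted p under 0.05). They were Tcp1, Cct2, Cct3, Cct5 and Cct7, 5 subunits of the chaperonin that folds actin and tubulin, with Dnaja2 and Hspa4, and 3 were called lower without WT_FGO_2 or WT_MII_2. Cct5, for example, had 287 and 229.8 FPKM in WT_FGO and 14.9 and 21.3 FPKM in WT_MII (log2 change -3.77 ± 0.42 (SE), adjusted p = 0.00735).

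Of 76 tested nuclear-encoded subunits of the respiratory chain and ATP synthase 23 fell and 0 rose (47 and 0 at an unadjusted p under 0.05), the median change was -2.69, and 68 members had a negative change against 4 positive ones. The list held 3.48% and 3.19% in WT_FGO and 0.730% and 0.901% in WT_MII of all FPKM. Uqcrq, of complex III, had 1721 and 1337 FPKM in WT_FGO and 183 and 179.8 FPKM in WT_MII (log2 change -3.06 ± 0.29 (SE), adjusted p = 0.00442 in limma). Ndufb11, of complex I, had 749 and 659 FPKM in WT_FGO and 26.8 and 28.7 FPKM in WT_MII (log2 change -4.61 ± 0.38 (SE), adjusted p = 0.00293), Cox4i1, of complex IV, had 489 and 534 FPKM in WT_FGO and 19.3 and 96.4 FPKM in WT_MII (log2 change -3.53 ± 0.73 (SE), adjusted p = 0.0451), and Atp5e, of ATP synthase, had 4146 and 1972 FPKM in WT_FGO and 311 and 472 FPKM in WT_MII (log2 change -2.90 ± 0.41 (SE), adjusted p = 0.0154). The stages did not overlap for these subunits, and the calls lay in complexes I, III and IV and in ATP synthase. Atp5a1 and Ndufa10 had 27 reads each in WT_FGO and none in WT_MII. Many calls of the list rested on few reads. Over all tested genes 3.09% fell. The number of falls in the list was 10 when either WT_FGO library was left out, and 18 and 19 when a WT_MII library was.

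Mitochondrial genes encode partners of these subunits. Of 13 such genes 5 averaged under 1 FPKM and were not tested. Of the 8 tested genes limma called 0 (1 was lower at an unadjusted p under 0.05), and their median change was -0.09. The difference between both lists was not tested. mt-Co1, of complex IV, was held (626 and 484 FPKM in WT_FGO and 428 and 719 FPKM in WT_MII, 95% interval -0.76 to 0.79), and mt-Cytb, of complex III, had 1576 and 1386 FPKM in WT_FGO and 869 and 1249 FPKM in WT_MII (log2 change -0.50, interval of its change -1.12 to 0.12). For mt-Co1, 66.7% of the coding words occur elsewhere, so its level is uncertain. The summed share of FPKM of the mitochondrially encoded list was 0.636% and 0.562% in WT_FGO and 0.447% and 0.535% in WT_MII. On median centring, the median change of that list was 0.37. Whether footprints of mitochondrial ribosomes were captured as well as those of cytosolic ones was not tested. The mitochondrial ribosomal proteins, 75 tested, had 2 rises and 2 falls, each on few reads. In the pyruvate and TCA cycle list, with 28 tested, Sucla2, Pkm and Ldhb fell. Without WT_FGO_2, 0 of the list were called lower, and 1 without WT_FGO_1 or WT_MII_2. For Pkm, 83.1% of the coding words occur elsewhere. Ldhb, the lactate dehydrogenase of oocytes, stayed near the top with 7059 and 6626 FPKM in WT_FGO and 3786 and 4191 FPKM in WT_MII (log2 change -0.78 ± 0.13 (SE), adjusted p = 0.0272), although 57.9% of its 28-base coding words occur elsewhere.

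Of 54 tested cytoplasmic ribosomal proteins 9 fell and 0 rose (median -1.52, with 14 and 1 at an unadjusted p under 0.05). The list held no more than 0.52% of FPKM at any stage, and of its 82 genes 28 were not tested. Rpl22 had 469 and 388 FPKM in WT_FGO and 78.9 and 90.2 FPKM in WT_MII (log2 change -2.33 ± 0.31 (SE), adjusted p = 0.0137 in limma). Many ribosomal protein genes have near-identical pseudogenes, which makes their levels uncertain. Without WT_FGO_1, 3 members were called lower, without WT_MII_1, 2 were called lower and 3 higher, and without WT_MII_2, 2 were called lower and 5 higher. Among 52 tested initiation factors 5 fell and 1 rose, against 3.09% and 3.67% of all tested genes. Eif4e1b, the oocyte form of the cap-binding protein, fell from 1256 and 612 FPKM to 150.1 and 112 FPKM (log2 change -2.75 ± 0.41 (SE), adjusted p = 0.0188), and Eif1ax and Eif1b, which select the start codon, fell from 859 and 518 FPKM to 56.1 and 70.2 FPKM and from 1391 and 707 FPKM to 194 and 101.01 FPKM. Of the initiation factors 0 were called lower without WT_MII_1 and 1 without WT_MII_2. Eif2b1, of the exchange factor that recharges eIF2, rose from 121 and 114 FPKM to 652 and 781 FPKM (log2 change 2.59 ± 0.26 (SE), adjusted p = 0.00521). Etf1 and Gspt2, release factors, fell among 11 tested elongation and termination factors, and Gars was the single call among 20 tested aminoacyl-tRNA synthetases.

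Actin, cAMP and egg surface genes held scattered calls. Of 31 tested actin genes 5 fell and 1 rose. Pfn1, profilin, fell from 541 and 562 FPKM to 14.1 and 30.1 FPKM (log2 change -4.67 ± 0.49 (SE), adjusted p = 0.00611 in limma), as did Actb, Arpc2, Arpc4 and Arpc5l, whereas Actr2, of the Arp2/3 complex like the last 3, had 3 reads against 118, a ratio of 20.03-fold (95% exact counting interval 6.69 to 98.5). Without WT_FGO_1, 2 actin genes were called lower, without WT_FGO_2, 1, and without either WT_MII library, 3. Of the egg surface genes, Izumo1r (JUNO), the sperm receptor, fell from 486 and 606 FPKM to 32.3 and 101.47 FPKM (log2 change -3.22 ± 0.66 (SE), adjusted p = 0.0436) and Cd9, needed for fusion, from 672 and 248 FPKM to 26.8 and 44.7 FPKM (log2 change -3.52 ± 0.59 (SE), adjusted p = 0.0259). Neither was called without WT_FGO_1, WT_MII_1 or WT_MII_2. Astl, the protease ovastacin that cleaves ZP2 after fertilization, had 3591 and 1429 FPKM in WT_FGO and 1454 and 1510.0 FPKM in WT_MII without a call (adjusted p = 0.490). Akap1, an anchor of protein kinase A at mitochondria, went from 65.6 and 78.0 FPKM to no read, at least 12.7-fold lower. Ywhag fell with Ywhab, while Ywhae was held. Of the 17 tested granulosa and cumulus markers limma called 0, with 2 higher and 0 lower at an unadjusted p under 0.05.

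**Figure D5:**
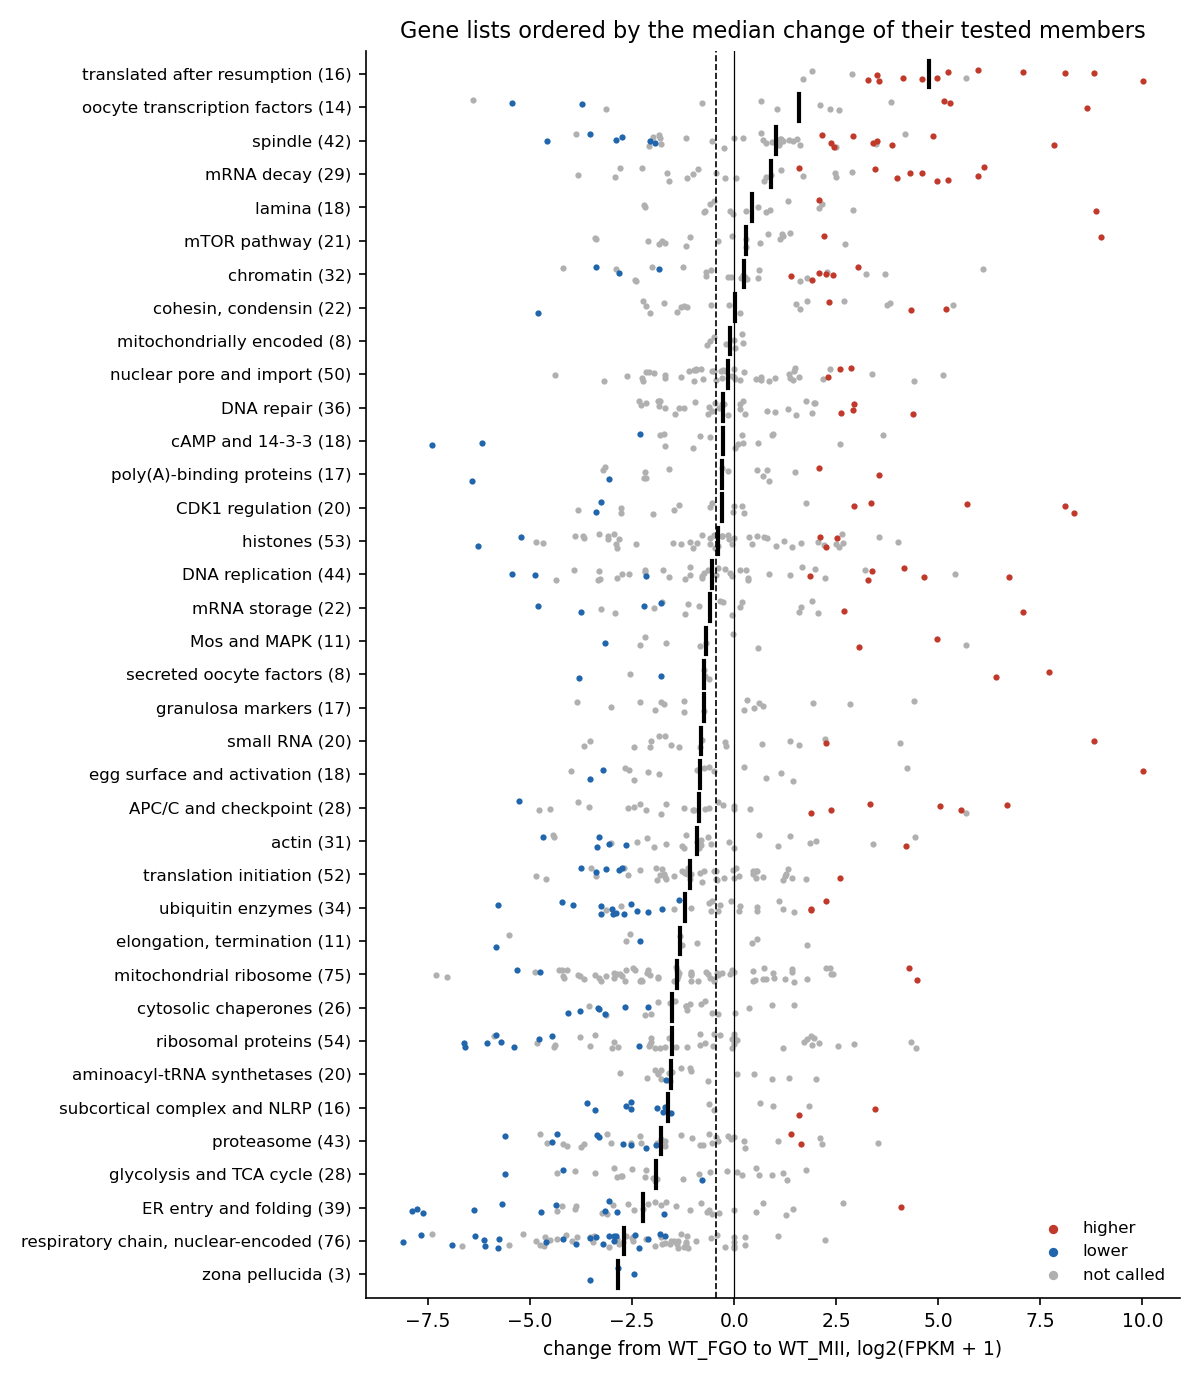
Change from WT_FGO to WT_MII on the log2(FPKM + 1) scale (x axis) of every tested member of 37 gene lists (y axis, number tested in parentheses). Points are genes (red higher, blue lower, grey not called), black bars the list medians, and the dashed line the median of all tested genes (-0.44). Lists of messages translated after resumption and of mRNA decay lie to the right, and those of the zona pellucida, the respiratory chain and the endoplasmic reticulum to the left.

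The medians of 16 lists changed sign under at least 1 alternative and carry no direction: CDK1 regulation, Mos and MAPK, the anaphase-promoting complex, cohesin, replication, chromatin, histones, poly(A)-binding proteins, mitochondrially encoded genes, nuclear pore, lamina, cAMP, repair, mTOR, small RNA and granulosa markers. The other 21 kept their sign under all alternatives.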

How the data were processed

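Ribo-lite libraries were trimmed, aligned to mm10 and summarised by the authors, who deposited FPKM per gene. The submitters' processing notes name cutadapt 1.14, Bowtie2 2.2.2 and STAR 2.5.3a, whereas the counting program, annotation and handling of molecular identifiers are not given in the sources used here. Of 22442 rows, 26 repeats of 24 gene names were left out (the row with the highest mean stayed). Reads were recovered from FPKM and GENCODE M21 coding length (97.7% of genes whole within 0.02 reads). They served depth, folds against 0 and counting intervals, which cover counting error only. Coding words shared with other genes are stated for some genes only. Further named genes have them too, such as Zar1 (44.1%), Cks1b (37.6%), Uhrf1 (48.1%), Ndufb11 (44.1%) and Eif4e1b (37.2%). The test was limma 3.58.1 (lmFit, eBayes with trend) on log2(FPKM + 1), a scale that understates changes of low genes, with the 6 libraries in 1 fit of 3 groups. Named were the 12 largest changes per direction (adjusted p under 0.05, stages apart, at least 20 reads), the 8 highest genes per stage, and in each of 37 lists the 3 highest and all called members. 1 gene among the largest falls is not reported here. Members and lists were chosen with earlier results of these data known.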

Additional observations from a re-analysis of the deposited data

How the results depend on the processing

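No gene called in the main fit changed sign under any alternative run. For the runs with another filter, the 4 control libraries alone or the replicate block this was fixed in advance. Those runs use the same values and group means as the main fit. The other runs reuse the data that gave the calls, so the kept signs are no independent support. With pseudocount 0.1, no filter, a mean of at least 5 FPKM, at least 40 reads or quantile normalization, higher calls numbered 526 to 690 and lower calls 402 to 644. Median centring gave 758 and 305, and precision weights 814 and 1603. The 4 control libraries alone gave 0 and 0, and 0 of the 241 named genes called. Leaving out 1 library gave 583 to 902 higher and 243 to 1065 lower calls, and 116 to 166 named genes called. Higher calls numbered 902 without WT_FGO_2. Lower calls numbered 1065 without WT_FGO_1, 850 without WT_FGO_2, 243 without WT_MII_1 and 263 without WT_MII_2. With the replicate number as a block (replicate block), 453 higher and 335 lower calls were made, 433 and 311 of them shared. The deviations of same-numbered libraries correlated at 0.059 across genes. With 2 libraries per stage this cannot show whether the numbers pair the samples, and the labels do not say. The median change over all genes was -0.28 without a filter, -0.61 from 5 FPKM, 0.13 from 40 reads, 0.0202 after centring, -0.0264 after quantile normalization, -0.93 with weights and -0.43 to 0 without 1 library. Of 37 list medians 29 were below 0, and 20 to 32 under the alternatives. As a mean share of reads, the 100 highest WT_MII genes held 35.6%. Ranked by the other library, the 100 highest WT_FGO genes changed by -1.31 instead of -1.46. In the last 150 bases, elements were found in 55.6% of higher, 16.0% of lower and 26.6% of all genes. The cause was not tested. Depth limits low genes, for which a few reads decide the value.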
